A study of Mus musculus with 14 samples.

Results

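The 391 genes described here lie on mouse chromosome 15 and were taken by position and level alone. A gene was a member if the deposited count table placed it on chromosome 15 and its mean log2 CPM (counts scaled to library size by the trimmed mean of M-values, TMM) over the 14 libraries was at least 3. Myc, Il7r, Ly6a, Nfe2 and Il2rb were left out by the rule. The table listed 46946 genes, of which 1268 were on chromosome 15, and 872 of these stayed below the level. The rule did not use the difference between tumour and control as such, but 10 of the 14 libraries behind the level are tumours. A gene low in WT could enter through high tumour counts alone, and a gene lost in the tumours could drop out. Near the threshold the level therefore favours rises over falls. Of the members, 363 are protein coding, 103 lie to the left of Myc (chr15:61985341-61990374, mm10), toward the centromere, and 288 to its right. Every member passed the filter on low counts (at least 1 CPM in at least 3 libraries), 3 were below 1 CPM in some library, and 19 had a WT mean below the level. The level was crossed between Rhebl1 (2.995) and Xpnpep3 (2.938) outside and Gm7935 (3.012) and Ttll1 (3.04) inside.

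The series compares the transcriptomes of T-cell acute lymphoblastic leukaemias (T-ALL) started in mice by the transcriptional cofactor Lmo2 with that of healthy thymus. All animals were of the mixed strain C57BL/6;CBA. The controls were 4 wild-type (WT) animals of 4 months. Rosa26-Lmo2+Sca1-Cre (3 libraries, 9 months) carries Lmo2 in the Rosa26 locus, switched on by Cre from the Sca1 (Ly6a) promoter of blood stem and progenitor cells. Sca1-Lmo2 (4 libraries, 7 to 8 months) expresses Lmo2 directly from that promoter, which is meant to confine the transgene to stem and progenitor cells. Rosa26-Lmo2+Mb1-Cre (2 libraries, 20 months) uses a Cre of early B cells and Rosa26-Lmo2+Aid-Cre (1 library, 22 months) a Cre of germinal centre B cells, in mice that the methods describe as immunised with sheep red blood cells. Every tumour library came from an older animal than every WT library, so age and leukaemia cannot be told apart here. The labels call the tissue thymus, while the methods speak of blast cells. The labels give each library its own number and age, and nothing else says that the libraries of a group are separate animals, so the p-values measure the spread between these libraries, which may in part be technical.

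Chromosome 15 carries Myc, the transcription factor that drives growth and division in most T-cell leukaemias, and its noncoding neighbour Pvt1. Gain of a whole copy of this chromosome is one of the most common chromosome changes in mouse T-cell tumours. A gene present in an extra copy is often, though not always, expressed more, and RNA counts do not measure the number of chromosomes. For scale, 3 copies in place of 2 in every cell, with output in proportion, would raise each gene by 0.58 on the log2 scale.

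Of the 391 members, 202 matched the RefSeq promoter table (GRCm38.p6). The letters CACGTG, the E-box at the centre of the motif that Myc and its partner Max bind, read the same on both strands and were searched in 250 bases before to 50 after each start. They stood in 9.9% of the members' promoters (20 of 202), in 6.94% of all 936 promoters of the chromosome and in 7.15% of the 32851 in the table. Among members called higher than WT they stood in 1 of 23 (4.35%) in Rosa26-Lmo2+Sca1-Cre, 4 of 50 (8.0%) in Sca1-Lmo2 and 4 of 51 (7.84%) in Rosa26-Lmo2+Mb1-Cre. A match in a window is a description of its letters, not of binding. The 250 bases before the start are shown for 3 members that the results below turn on, all on the plus strand and written 5′ to 3′, with an E-box in capitals. Fbln1, an extracellular matrix gene, was among the largest rises in each of these 3 models and has 1 E-box, whose first base lies 140 bases before the start (chr15:85205758-85206007). Polr2f, a small subunit shared by the nuclear RNA polymerases, was among the largest rises in Rosa26-Lmo2+Mb1-Cre and has none (chr15:79141075-79141324). Nr4a1, the nuclear receptor gene that T-cell receptor signals induce, was the largest fall in that model and has none (chr15:101266596-101266845). The share of G and C in these windows was 62.4% for Fbln1, 62.8% for Polr2f and 74.4% for Nr4a1.
Fbln1: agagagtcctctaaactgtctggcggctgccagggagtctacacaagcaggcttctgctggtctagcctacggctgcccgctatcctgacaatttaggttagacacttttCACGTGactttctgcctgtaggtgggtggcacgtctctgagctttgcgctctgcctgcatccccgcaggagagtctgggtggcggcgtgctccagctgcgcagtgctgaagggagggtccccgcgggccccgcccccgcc
Polr2f: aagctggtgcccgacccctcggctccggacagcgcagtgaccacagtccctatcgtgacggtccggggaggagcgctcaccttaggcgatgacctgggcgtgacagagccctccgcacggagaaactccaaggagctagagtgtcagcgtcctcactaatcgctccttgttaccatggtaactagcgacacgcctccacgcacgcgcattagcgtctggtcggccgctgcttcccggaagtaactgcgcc
Nr4a1: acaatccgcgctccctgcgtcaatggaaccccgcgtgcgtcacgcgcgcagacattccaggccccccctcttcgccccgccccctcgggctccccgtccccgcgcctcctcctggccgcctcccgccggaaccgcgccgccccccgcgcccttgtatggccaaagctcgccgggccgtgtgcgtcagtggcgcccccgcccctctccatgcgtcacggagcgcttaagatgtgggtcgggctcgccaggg

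The libraries held 42985130 to 47667663 counts, and the members took 3.81 to 4.02% of them in WT and 3.62 to 5.96% in the tumours. Rosa26-Lmo2+Sca1-Cre replicate 3 stood apart from the rest: 72.1% of all listed genes had a count in it against 50.1 to 57.0% in the other libraries, and its median count was 12 against 1 to 2, so the chromosome and list results of that model are also given without it. The T-lineage markers (11 of 11 found) summed to 9240 to 10900 CPM in WT and 2950 to 6900 CPM in the tumours. Myeloid markers (5 of 5) summed to 86.3 to 159 CPM in WT, 249 to 405 in Rosa26-Lmo2+Sca1-Cre, 64.2 to 138 in Sca1-Lmo2, 217 and 806 in Rosa26-Lmo2+Mb1-Cre, and reached 354 for the Rosa26-Lmo2+Aid-Cre library. Erythroid markers (3 of 3) summed to 168 to 1420 CPM in WT, to 634, 4230 and 542 in Rosa26-Lmo2+Sca1-Cre and to 386 to 1540 in the other tumours. In such bulk samples fewer cells of a type and less RNA per cell cannot be told apart. The part of cell composition in the chromosome 15 results was not tested.

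Chromosome 15 stood above the median of the other autosomes' genes, by 0.28 or more, in 6 of the 10 tumour libraries. It was close to that median in the other 4. The measure, called the shift, was the median over the members of log2 CPM minus the WT mean, less the same median over 9731 genes of the other 18 autosomes at the same level. Each WT library, set against the mean of the other 3, gave the background, with shifts of 0.06, 0.03, -0.01 and -0.03. In Rosa26-Lmo2+Sca1-Cre the shift was 0.01, 0.50 and 0.02, so that replicate 2 alone lay outside the WT range by more than 0.1. In Sca1-Lmo2 it was 0.53, 0.04, 0.59 and 0.56, with replicate 2 inside the WT range and the others near 0.58. In Rosa26-Lmo2+Mb1-Cre it was 0.46 and 0.28, and in the single Rosa26-Lmo2+Aid-Cre library -0.02. At the median these are 1.42-fold for Rosa26-Lmo2+Sca1-Cre replicate 2, 1.44-, 1.50- and 1.47-fold for Sca1-Lmo2 replicates 1, 3 and 4, and 1.37- and 1.22-fold for the Rosa26-Lmo2+Mb1-Cre libraries.

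**Figure D1:**
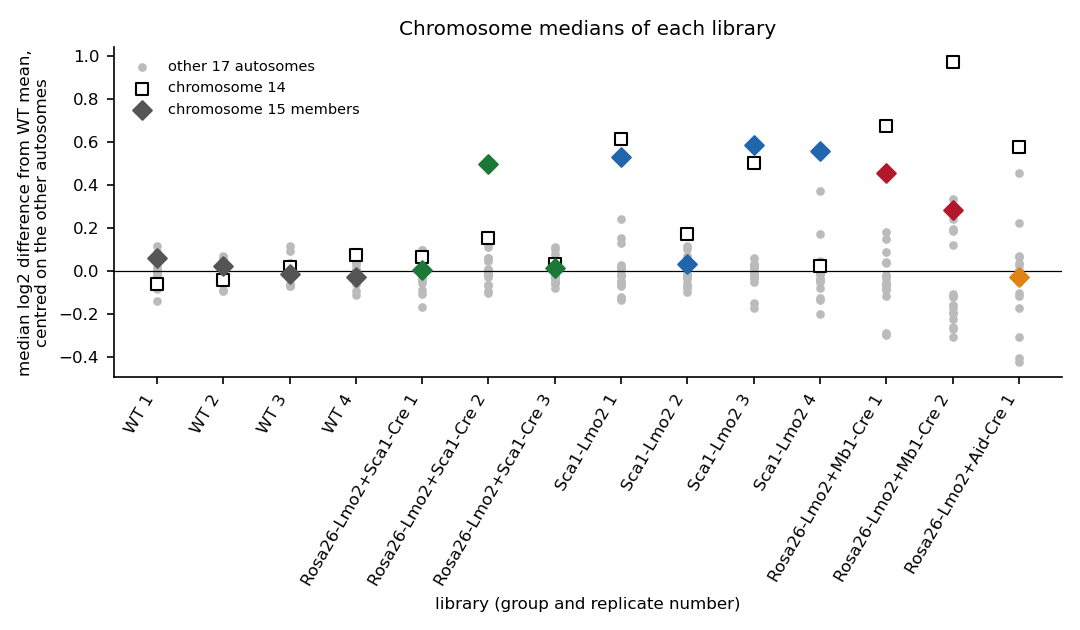
Median difference from the WT mean for each autosome in each of the 14 libraries, on the log2 scale and centred on the other autosomes, with chromosome 15 marked. The chromosome 15 marks lie from 0.28 to 0.59 in 6 tumour libraries and from -0.02 to 0.04 in the other 4, and the WT libraries lie from -0.03 to 0.06.

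The group means of the shift were 0.18 ± 0.28 (SD, n = 3) for Rosa26-Lmo2+Sca1-Cre, 0.43 ± 0.26 (SD, n = 4) for Sca1-Lmo2, 0.37 ± 0.12 (SD, n = 2) for Rosa26-Lmo2+Mb1-Cre and 0.01 ± 0.04 (SD, n = 4) for WT. A single library moved these means: without replicate 2 the Rosa26-Lmo2+Sca1-Cre mean was 0.01, and without replicate 2 the Sca1-Lmo2 mean was 0.56. Without the library that stood apart, replicate 3, the Rosa26-Lmo2+Sca1-Cre mean was 0.26. No p-value was given to the shift, because it is a score over genes chosen with earlier results of these data known. The centring matters, since TMM left the other autosomes at -0.15 in Rosa26-Lmo2+Sca1-Cre, at -0.12 in Rosa26-Lmo2+Mb1-Cre and at 0.08 in Sca1-Lmo2. Scaling by library totals left them at -0.50, -0.51 and -0.15, and the chromosome 15 medians without centring were then -0.32, -0.14 and 0.28. With TMM and without centring the group values were 0.03, 0.25 and 0.51 in the same order, so the sign for both Rosa26-Lmo2 models turned, among the settings tried, only where both steps were dropped.

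The share of members above the WT mean after centring was read next. In WT it was 54.5, 54.0, 48.3 and 46.3%. It was 50.6, 70.8 and 51.4% in Rosa26-Lmo2+Sca1-Cre, 78.3, 54.0, 76.5 and 78.8% in Sca1-Lmo2, 68.5 and 60.9% in Rosa26-Lmo2+Mb1-Cre, while the Rosa26-Lmo2+Aid-Cre library was at 48.8%. The members did not differ from WT by 1 common amount. In Sca1-Lmo2 replicate 4, with the highest share, the range between the quartiles ran from 0.10 to 0.94, and in Rosa26-Lmo2+Mb1-Cre replicate 2 from -0.45 to 1.18. The other autosomes' genes in those libraries ran from -0.46 to 0.47 and from -0.79 to 0.93.

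Chromosome 15 was not the only autosome away from the rest. It ranked first of 19 autosomes in Rosa26-Lmo2+Sca1-Cre replicate 2 and in Sca1-Lmo2 replicates 3 and 4, where the next were chromosome 14 at 0.16, chromosome 14 at 0.51 and chromosome 6 at 0.37. Chromosome 14 was above it in Sca1-Lmo2 replicate 1 (0.62) and in both Rosa26-Lmo2+Mb1-Cre libraries (0.68 and 0.97). In Rosa26-Lmo2+Mb1-Cre replicate 2 chromosome 5 was above it as well, at 0.338 against 0.284. Chromosome 15 ranked 3 of 19 there, with chromosomes 4 (0.283) and 12 (0.246) close below. In Sca1-Lmo2 replicate 4 chromosome 14 stood at 0.03 while chromosome 15 stood at 0.56. In the Rosa26-Lmo2+Aid-Cre library chromosome 14 was the highest at 0.58 and chromosome 15 ranked 11th.

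Along the chromosome, the members were cut by position into 14 blocks of 25 genes and a last block of 41, and the median shift of each block was followed from the centromere outward. WT libraries ranged from -0.34 to 0.33 over all blocks. All 15 blocks were above 0 in Rosa26-Lmo2+Sca1-Cre replicate 2, in Sca1-Lmo2 replicate 3 and in Rosa26-Lmo2+Mb1-Cre replicate 1, and 14 of 15 in Sca1-Lmo2 replicates 1 and 4. The other libraries had fewer blocks above 0: 9 and 5 in Rosa26-Lmo2+Sca1-Cre replicates 1 and 3, 8 in Sca1-Lmo2 replicate 2, 10 in Rosa26-Lmo2+Mb1-Cre replicate 2 and 6 in Rosa26-Lmo2+Aid-Cre. Neighbouring genes share position and in part reads, so the blocks are not independent of each other.

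In a pair of blocks every tumour library lay above every WT library of the same block. The block from Cox6c, a cytochrome oxidase subunit, to Ebag9, centred at -23.7 Mb from the Myc start, was at 0.50, 1.20 and 0.39 in Rosa26-Lmo2+Sca1-Cre, at 0.83, 0.26, 0.88 and 0.66 in Sca1-Lmo2, at 0.87 and 0.92 in Rosa26-Lmo2+Mb1-Cre, while the Rosa26-Lmo2+Aid-Cre library was at 0.64, against -0.10 to 0.11 in WT. The block from Chadl to Rrp7a, centred at 20.1 Mb on the other side of Myc, was at 0.38, 1.05 and 0.55, then 0.68, 0.45, 1.01 and 0.87, then 0.98 and 0.78, and at 0.33 in the same order, against -0.10 to 0.14 in WT. The lowest values, 0.26 in Sca1-Lmo2 replicate 2 for the first block and 0.33 in Rosa26-Lmo2+Aid-Cre for the second, lay within the WT range over all blocks. The blocks hold Rrm2b, a subunit of the ribonucleotide reductase that makes deoxynucleotides, Pabpc1, which coats poly(A) tails, and Xrcc6, the Ku70 part of the double-strand break sensor.

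The block from Brd1 to Pphln1, centred at 27.4 Mb, was below the block before it in all 10 tumour libraries and below the block after it in 7 of them. Its values were -0.42, 0.31 and -0.30 in Rosa26-Lmo2+Sca1-Cre, -0.08, -0.24, 0.06 and 0.27 in Sca1-Lmo2, 0.35 and -0.04 in Rosa26-Lmo2+Mb1-Cre, while the Rosa26-Lmo2+Aid-Cre library was at -0.31. In Rosa26-Lmo2+Sca1-Cre replicate 2, with a shift of 0.50, the last 3 blocks stood at 0.02, 0.17 and 0.07. In Sca1-Lmo2 replicates 1, 3 and 4 those 3 blocks were at 0.40, 0.48 and 0.52, at 0.14, 0.54 and 0.59, and at 0.32, 0.52 and 0.65. The Rosa26-Lmo2+Aid-Cre library ran the other way on the 2 sides of Myc, with a median of 0.37 to the left and -0.18 to the right, and its lowest block was -0.49.

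The split at Myc differed among the libraries with a shift of 0.28 or more. The left and right medians were 0.71 and 0.40 in Rosa26-Lmo2+Sca1-Cre replicate 2, 0.76 and 0.41 in Sca1-Lmo2 replicate 1, and 0.61 and 0.17 in Rosa26-Lmo2+Mb1-Cre replicate 2. They were 0.52 and 0.59 in Sca1-Lmo2 replicate 3, 0.48 and 0.61 in its replicate 4, and 0.52 and 0.42 in Rosa26-Lmo2+Mb1-Cre replicate 1. Without such a shift, Sca1-Lmo2 replicate 2 gave 0.22 and -0.01, and Rosa26-Lmo2+Sca1-Cre replicates 1 and 3 gave -0.04 and 0.04, and 0.04 and 0.01. The WT libraries gave -0.10 and 0.11, -0.08 and 0.04, 0.11 and -0.07, and 0.03 and -0.06. WT libraries also separated by position: in the 3 blocks from Gm15387 to Cby1, replicates 1 and 2 were above 0 and replicates 3 and 4 below, by as much as 0.33 and -0.34. A block value inside that range is therefore not distinguishable from the spread among controls.

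**Figure D2:**
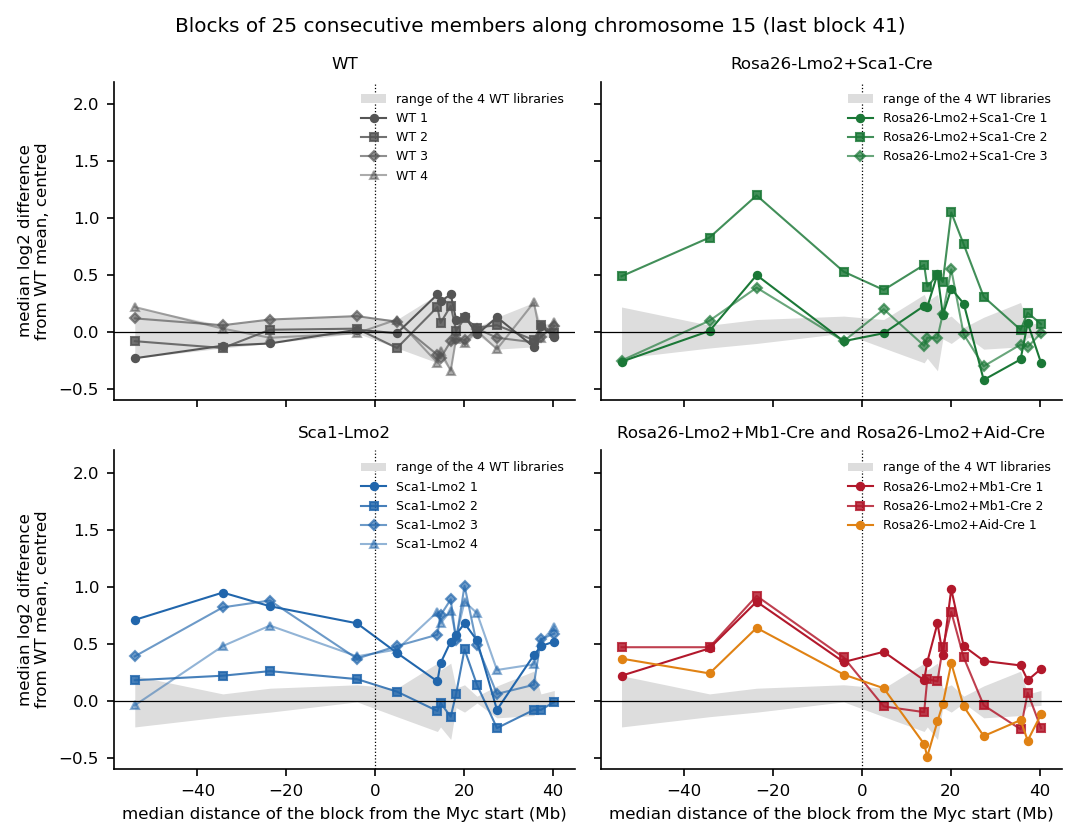
Median shift of 15 consecutive blocks of members along chromosome 15 (log2 scale, centred on the other autosomes) against distance from the Myc start in megabases, one line for each tumour library, with the range of the 4 WT libraries shaded. The blocks at -23.7 and 20.1 Mb lie above the WT range of the same block in all 10 tumour libraries.

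Beside Myc, the gene itself gives the context for its neighbours. Myc, not a member, was at 29.1, 39.9, 42.8 and 37.0 CPM in WT. It was at 102, 68.0 and 23.2 in Rosa26-Lmo2+Sca1-Cre, at 211, 194, 215 and 78.9 in Sca1-Lmo2, at 87.0 and 126 in Rosa26-Lmo2+Mb1-Cre, while the Rosa26-Lmo2+Aid-Cre library was at 93.8. Myc was above every WT library in all tumours but Rosa26-Lmo2+Sca1-Cre replicate 3. Its level was not ordered as the shift of the chromosome: Sca1-Lmo2 replicate 2, with a shift of 0.04, had a centred Myc difference of 2.28 (log2), and replicate 4, with a shift of 0.56, one of 1.06.

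The nearest member on the right is Pvt1, the long noncoding RNA gene that starts 0.05 Mb from the Myc start (chr15:62037986-62378096). Its counts were 4.52, 3.76, 4.14 and 3.62 CPM in WT, 20.5, 4.81 and 9.07 in Rosa26-Lmo2+Sca1-Cre, 13.4, 9.99, 16.7 and 6.74 in Sca1-Lmo2, 36.7 and 20.0 in Rosa26-Lmo2+Mb1-Cre, while the Rosa26-Lmo2+Aid-Cre library was at 7.05. Every tumour library lay above every WT library, with Rosa26-Lmo2+Sca1-Cre replicate 2 only just so. Pvt1 was below the level in WT and is a member only through its tumour counts. By edgeR's quasi-likelihood test Pvt1 rose by 2.90 (log2 fold change, SE 0.486, adjusted p = 0.00208) in Rosa26-Lmo2+Mb1-Cre, by 1.50 (SE 0.419, adjusted p = 0.0244) in Sca1-Lmo2 and by 1.59 (adjusted p = 0.0233) in Rosa26-Lmo2+Sca1-Cre. The Sca1-Lmo2 call was lost without any 1 WT library or without Sca1-Lmo2 replicate 1 or 3 (adjusted p up to 0.0716). The Rosa26-Lmo2+Sca1-Cre call was lost without WT replicate 2, 3 or 4 or without its own replicate 1 (0.92, adjusted p = 0.127).

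Left of Myc, Sqle (chr15:59315077-59331192), the squalene epoxidase of cholesterol synthesis, starts at -2.67 Mb. It was at 8.73, 15.4, 14.0 and 10.9 CPM in WT, 13.5, 47.1 and 26.4 in Rosa26-Lmo2+Sca1-Cre, 56.9, 28.4, 47.6 and 37.2 in Sca1-Lmo2, 34.0 and 25.1 in Rosa26-Lmo2+Mb1-Cre, while the Rosa26-Lmo2+Aid-Cre library was at 26.3. All tumour libraries but Rosa26-Lmo2+Sca1-Cre replicate 1 exceeded the WT libraries. Sqle rose by 1.76 (SE 0.357, adjusted p = 0.00638) in Sca1-Lmo2, by 1.35 (adjusted p = 0.025) in Rosa26-Lmo2+Mb1-Cre, and by 1.32 in Rosa26-Lmo2+Sca1-Cre (adjusted p = 0.0245). The latter calls were lost when single libraries were left out, with adjusted p up to 0.122 without Rosa26-Lmo2+Sca1-Cre replicate 2 and up to 0.141 without Rosa26-Lmo2+Mb1-Cre replicate 1.

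The other neighbours moved less. Nsmce2, a SUMO ligase of the SMC5/6 complex that guards replicating DNA, rose by 1.12 (adjusted p = 0.00637) in Rosa26-Lmo2+Mb1-Cre, a call lost without replicate 2 (adjusted p = 0.056), and by 0.68 (adjusted p = 0.0406) in Rosa26-Lmo2+Sca1-Cre, a call lost when any of 5 single libraries was left out (adjusted p up to 0.138). E430025E21Rik rose by 0.71 (adjusted p = 0.0209) in Sca1-Lmo2, a call lost without WT replicate 1 or 2 or Sca1-Lmo2 replicate 1 (0.56, adjusted p = 0.0643). Trib1, a pseudokinase, Fam49b, a Rac1-binding protein, Asap1, an Arf GAP, and Efr3a, a membrane anchor for a lipid kinase, passed the test in none of the 3 comparisons. On library totals without TMM the calls of Pvt1 and E430025E21Rik in Sca1-Lmo2, and those of Pvt1, Sqle and Nsmce2 in Rosa26-Lmo2+Sca1-Cre and of Sqle and Nsmce2 in Rosa26-Lmo2+Mb1-Cre, were lost. For Trib1 the log2 fold change was -0.28 in Sca1-Lmo2 and -0.44 in Rosa26-Lmo2+Mb1-Cre. It was 0.91 in Rosa26-Lmo2+Sca1-Cre and -0.81 (adjusted p = 0.113) without replicate 3, since it rests on 51.8 CPM in replicate 3, the library that stood apart, against 4.68 and 9.68 in the other two.

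**Figure D3:**
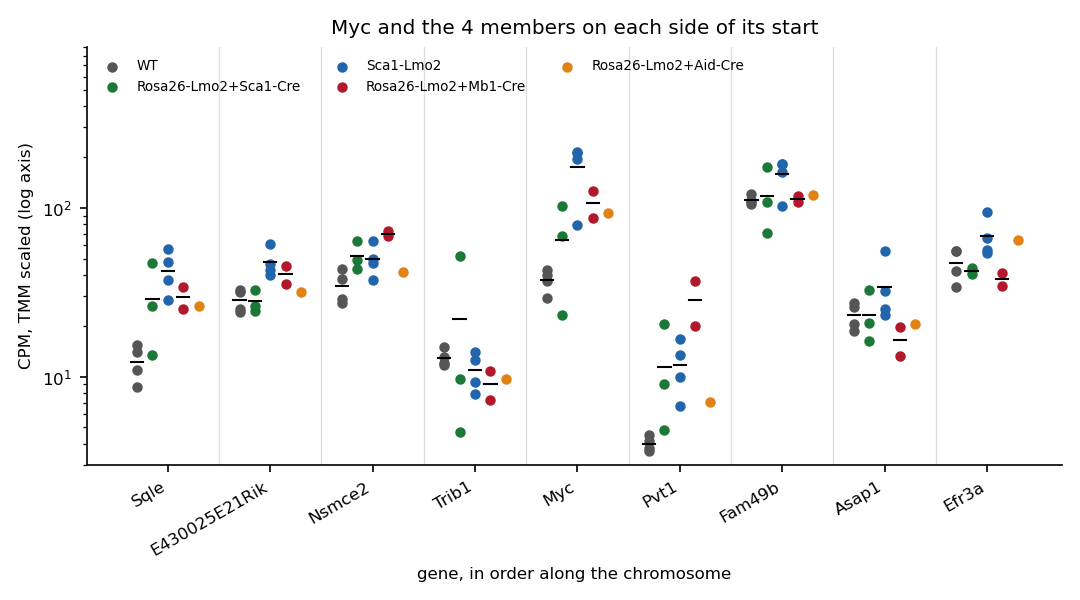
Normalised read counts (CPM, log axis) in each of the 14 libraries for Myc and the 4 members nearest to it on each side, in order along the chromosome. Pvt1 lies above all WT libraries in every tumour library. Fam49b, Asap1 and Efr3a overlap WT in each model tested, and Trib1 does so except in Rosa26-Lmo2+Mb1-Cre.

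Gene by gene, members higher than WT outnumbered members lower than WT in each model, but the excess over the genome was clearest in Sca1-Lmo2. Against WT, 98 members (25.1%) rose and 7 (1.79%) fell in Sca1-Lmo2, where 12.1% of all 17087 genes tested rose and 10.2% fell. In Rosa26-Lmo2+Mb1-Cre 111 (28.4%) rose and 39 (9.97%) fell, against 19.7% and 15.4% of all genes. In Rosa26-Lmo2+Sca1-Cre 65 (16.6%) rose and 29 (7.42%) fell, against 16.5% and 10.4%, so that the share of rises was that of the background. The median log2 fold change of the members was 0.50, 0.40 and 0.14 in the same order, and 0.05, -0.01 and 0.06 over all genes. The 3 comparisons share the 4 WT libraries. The test was edgeR's quasi-likelihood F test, two-sided, with Benjamini-Hochberg adjusted p of at most 0.05.

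Scaling decided the balance in part. On library totals without TMM, 63 members rose and 10 fell in Sca1-Lmo2, 63 rose and 57 fell in Rosa26-Lmo2+Mb1-Cre, and 32 rose and 71 fell in Rosa26-Lmo2+Sca1-Cre. The counts also moved with single libraries. Without Sca1-Lmo2 replicate 2 the rises in that model were 122, and without its replicate 1 or 3 or any 1 WT library they were 57 to 65, while 6.91 to 12.2% of all genes rose in those fits. Its falls were 2 to 4 without WT replicate 1, 2 or 4 or its own replicate 3, where 5.95 to 7.09% of all genes fell. In Rosa26-Lmo2+Mb1-Cre the rises numbered 34 and the falls 5 without replicate 2, where 6.02 and 3.38% of all genes were called, and the falls numbered 20 without WT replicate 4. That fit without WT replicate 4 called 10.1% of all genes lower. Without Rosa26-Lmo2+Sca1-Cre replicate 2 there were 28 rises (10.7% of all genes), and without replicate 3, the library that stood apart, 86 rises (17.3% of all genes) and 22 falls (12.1%). The rises were 29 without WT replicate 3 or 4 (8.03 and 7.3% of all genes). The falls were 11 and 5 without these libraries and 10 without replicate 1 (4.81, 4.23 and 5.57% of all genes).

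Genes of the other autosomes at the same level gave shares of 12.5% higher and 9.49% lower in Sca1-Lmo2, 22.1 and 19.3% in Rosa26-Lmo2+Mb1-Cre, and 15.1 and 13.0% in Rosa26-Lmo2+Sca1-Cre. Chromosome 14 gave 22.1 and 3.0%, 46.6 and 4.09%, and 16.1 and 9.54%. The rises were not spread evenly. In Rosa26-Lmo2+Sca1-Cre 24.3% of the members left of Myc rose against 13.9% of those to the right, and 25 of the 29 falls lay to the right. In Rosa26-Lmo2+Mb1-Cre 35.9% rose on the left and 25.7% on the right, with 34 of 39 falls on the right. In Sca1-Lmo2 the shares were 23.3% on the left and 25.7% on the right. The difference between the sides was not tested. In the block from Cox6c to Ebag9, 12 of 25 members rose in Rosa26-Lmo2+Mb1-Cre, 10 in Rosa26-Lmo2+Sca1-Cre and 7 in Sca1-Lmo2, and none fell.

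**Figure D4:**
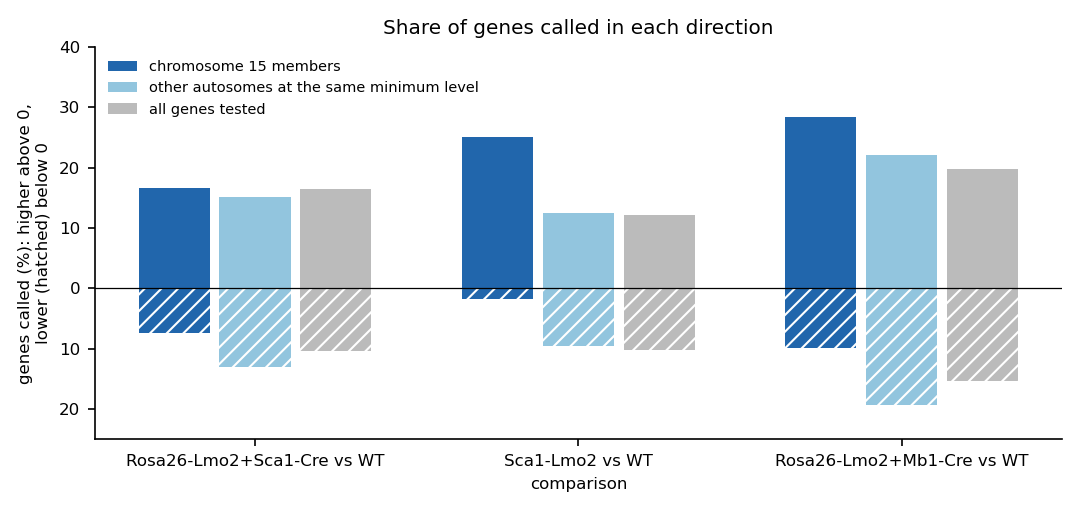
Share of genes called higher and called lower than WT (percent, edgeR's quasi-likelihood test, adjusted p of at most 0.05) among the 391 chromosome 15 members, the other autosomes at the same level and all 17087 genes tested, for each model. In Sca1-Lmo2 25.1% of the members rose against 12.1% of all genes.

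In Sca1-Lmo2 the members with the largest rises were genes with low counts in WT thymus. Fbln1, Angpt1, Ncald and Fam109b lay below the level in WT and are members only through their tumour counts. A rise in these genes is therefore in part a product of the rule. Fbln1, which encodes the matrix glycoprotein fibulin-1, was at 2.02, 4.16, 3.52 and 1.63 CPM in WT and at 56.9, 18.6, 65.5 and 247 CPM in Sca1-Lmo2, and rose by 5.07 (SE 0.841, adjusted p = 0.00258). H1f0, the replacement linker histone H1.0, was at 14.6 to 21.5 CPM in WT and at 217, 57.8, 228 and 498 CPM in Sca1-Lmo2, and rose by 3.74 (SE 0.635, adjusted p = 0.00287). Angpt1, the angiopoietin ligand of the Tie2 receptor, was at 2.61 to 4.69 CPM in WT and at 121, 15.5, 77.1 and 6.82 CPM in Sca1-Lmo2, and rose by 3.86 (SE 0.819, adjusted p = 0.00756), which missed the threshold with limma-voom (adjusted p = 0.0655). The groups did not overlap for these genes, and the 4 tumour libraries were spread widely. Replicate 4 was highest for Fbln1 and H1f0 and lowest for Angpt1.

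Ncald, a neuronal calcium sensor, was at 3.38 to 4.11 CPM in WT and at 45.3, 16.7, 41.6 and 77.2 CPM in Sca1-Lmo2, and rose by 3.61 (SE 0.483, adjusted p = 0.000994). Fam109b rose by 5.26 (SE 0.806, adjusted p = 0.00182) from 1.01 to 1.49 CPM, and Spats2 by 2.97 (SE 0.558, adjusted p = 0.00448) from 7.84 to 14.5 CPM. Ncald overlaps Gm28221 and Fam109b overlaps Smdt1, and the counts have no strand, so their reads cannot be told apart. In each of these genes replicate 2 of Sca1-Lmo2, the library with a shift of 0.04, was above every WT library as well, with 38.2 CPM for Fam109b and 56.2 for Spats2. The stroma and endothelium markers (7 of 7 found) summed to 117 to 127 CPM in WT and 130 to 201 CPM in Sca1-Lmo2, with Cdh5 under 1 CPM in every library. Their part in the rises of Fbln1 and Angpt1 was not tested.

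Only 7 members fell in Sca1-Lmo2, and 6 are named here. Cacnb3, the β3 subunit of voltage-gated calcium channels, was at 43.6, 38.2, 26.8 and 36.2 CPM in WT and at 7.1, 10.5, 10.3 and 11.2 CPM in Sca1-Lmo2, and fell by 1.93 on the log2 scale. Gsdmd, the pore-forming protein of pyroptosis, fell by 0.90, from 57.6 to 81.1 CPM in WT to 26.0 to 46.7 CPM. Adcy6, an adenylyl cyclase, fell by 0.98, and Sbf1, a myotubularin-related pseudophosphatase, by 0.87. Both of these calls were lost without WT replicate 4 (-0.80, adjusted p = 0.0637 for Adcy6, and -0.78, adjusted p = 0.0521 for Sbf1) and without Sca1-Lmo2 replicate 3. Lmbr1l fell by 0.89 and Fam105a by 0.61, and these calls were lost when any of 6 single libraries was left out, with adjusted p up to 0.0958 for Lmbr1l and 0.0781 for Fam105a.

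In Rosa26-Lmo2+Sca1-Cre the same rule named Fam109b, Fbln1, Ncald, Dennd3, Angpt1 and Rpl39-ps among the rises. Of these, Fam109b, Fbln1, Ncald, Dennd3 and Angpt1 are members only through their tumour counts. Fam109b was at 54.4, 42.8 and 26.5 CPM and rose by 5.06 (SE 0.816, adjusted p = 0.0038). Ncald was at 44.4, 28.5 and 25.1 CPM and rose by 3.25 (SE 0.492, adjusted p = 0.00294). Fbln1, at 12.4, 73.1 and 17.2 CPM, rose by 3.66 (SE 0.812, adjusted p = 0.0111) and missed the threshold with limma-voom (adjusted p = 0.0545). For both Fam109b and Ncald, replicate 1, with a shift of 0.01, was above replicate 2, with a shift of 0.50. Dennd3, a Rab exchange factor, was at 5.96 to 8.61 CPM in WT and at 48.5, 49.9 and 17.2 CPM here, and rose by 2.38 (SE 0.509, adjusted p = 0.00998). Angpt1 rose by 2.35 (adjusted p = 0.0472), a call lost when any 1 WT library or replicate 2 or 3 was left out (adjusted p up to 0.124). Rpl39-ps, which rose by 2.11 (adjusted p = 0.00986), is a pseudogene and may hold reads of its parent gene.

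Falls in Rosa26-Lmo2+Sca1-Cre were fewer. Grap2, the adaptor that links LAT to SLP-76 below the T-cell receptor, was at 62.4, 66.8, 118 and 135 CPM in WT and at 31.0, 33.9 and 17.6 CPM here, and fell by 1.73 on the log2 scale (SE 0.444, adjusted p = 0.0172), with adjusted p = 0.0517 without WT replicate 4. Adcy6 was at 185, 193, 192 and 290 CPM in WT and at 67.3, 84.9 and 54.6 CPM here, and fell by 1.57 (SE 0.29, adjusted p = 0.00637), although Gm29331 overlaps it. Nipbl, the loader of the cohesin ring onto DNA, was at 86.3, 104, 163 and 194 CPM in WT and at 30.2, 52.1 and 48.0 CPM here, and fell by 1.57 (SE 0.383, adjusted p = 0.0147), with adjusted p = 0.051 when replicate 1 was left out. For Grap2, Adcy6 and Nipbl every tumour library lay below every WT library. Mtss1 fell by 1.45, Sbf1 by 1.30 and Rictor, the defining subunit of the kinase complex mTORC2, by 1.21. The Rictor call was lost when any of 5 single libraries was left out (adjusted p up to 0.135).

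In Rosa26-Lmo2+Mb1-Cre, with 2 libraries, Fbln1 had the largest rise, at 57.8 and 79.2 CPM (4.67, SE 0.879, adjusted p = 0.00332). Fbln1 and Ncald are members only through their tumour counts. Ncald was at 41.7 and 11.7 CPM and rose by 2.96 (SE 0.518, adjusted p = 0.00251). H1f0 was at 114 and 154 CPM and rose by 2.95 (adjusted p = 0.00746), a call lost without replicate 2 (adjusted p = 0.06). Stk3, a kinase of the Hippo pathway, was at 10.4 to 13.4 CPM in WT and at 96.1 and 31.9 CPM here, and rose by 2.57 (SE 0.484, adjusted p = 0.00329). Polr2f was at 32.6, 27.6, 16.6 and 15.2 CPM in WT and at 101 and 141 CPM here, and rose by 2.47 (SE 0.433, adjusted p = 0.00252). Angpt1, at 6.17 and 3.16 CPM, overlapped WT, and its fold change of 0.42 did not pass (adjusted p = 0.736).

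Nr4a1 fell furthest in Rosa26-Lmo2+Mb1-Cre. It was at 107, 98.1, 100 and 108 CPM in WT, at 17.3 and 8.3 CPM here, and at 16.2, 32.6 and 80.4 CPM in Rosa26-Lmo2+Sca1-Cre, 46.4, 19.9, 44.4 and 115 CPM in Sca1-Lmo2 and 17.6 CPM in Rosa26-Lmo2+Aid-Cre. The fall was 2.94 on the log2 scale in Rosa26-Lmo2+Mb1-Cre (a change of -2.94, adjusted p = 0.0132) and did not pass in the other models (-1.14 and -0.91). All 3 Rosa26-Lmo2+Sca1-Cre libraries lay below every WT library, while in Sca1-Lmo2 replicates 1, 2 and 3 lay below and replicate 4 above. Cacnb3 fell by 2.29, Adcy6 by 2.07, Grap2 by 1.90, Gsdmd by 1.77 and Sbf1 by 1.69. Without replicate 2 the calls of Nr4a1 (adjusted p = 0.132), Cacnb3 (0.12) and Grap2 (0.145) were lost. The calls of Adcy6, Gsdmd and Sbf1 held in every setting tried. In all 3 models Gsdmd lay below every WT library, at 32.3 to 34.7 CPM in Rosa26-Lmo2+Sca1-Cre and at 22.5 and 13.6 CPM in Rosa26-Lmo2+Mb1-Cre.

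The members were also read by function, from lists chosen with earlier results of these data known. Genes of the ribosome and of translation gave the most rises: of 20 members, 10 rose in Rosa26-Lmo2+Sca1-Cre, as many rose in Sca1-Lmo2, and 15 rose in Rosa26-Lmo2+Mb1-Cre, with no falls. Of all genes 16.5, 12.1 and 19.7% rose. The list also holds Polr2f, an RNA polymerase subunit and not a translation gene, which is among the rises in both Rosa26-Lmo2 models. Single libraries moved the counts of the list. In Rosa26-Lmo2+Sca1-Cre 1 member rose without replicate 2, 4 without WT replicate 3 or 4, and 17 without replicate 3, the library that stood apart. In Sca1-Lmo2 the rises were 4 to 6 without any 1 library of its 2 groups other than replicate 2. In Rosa26-Lmo2+Mb1-Cre they were 4 without replicate 2. The median log2 fold changes were 1.00, 1.01 and 1.69, against 0.06, 0.05 and -0.01 over all genes. On library totals 6, 9 and 15 rose, with medians of 0.47, 0.81 and 1.21. Rpl3, a protein of the large ribosomal subunit, was at 1050, 928, 702 and 543 CPM in WT, 3610, 3160 and 1350 in Rosa26-Lmo2+Sca1-Cre, 2180, 1930, 3260 and 2330 in Sca1-Lmo2, 2300 and 4270 in Rosa26-Lmo2+Mb1-Cre, while the Rosa26-Lmo2+Aid-Cre library was at 1020. It exceeded WT in every tumour library except that of Rosa26-Lmo2+Aid-Cre, and rose by 1.81 in Rosa26-Lmo2+Sca1-Cre and by 1.55 in Sca1-Lmo2, and it passed the test in Rosa26-Lmo2+Mb1-Cre as well. Rpl8 rose by 1.76, 1.33 and 2.05 and Brix1, a factor of large-subunit assembly, by 0.90, 0.81 and 1.72. Pabpc1 rose by 1.52 in Sca1-Lmo2, and its values of 0.83 and 0.97 in the others did not pass. No member of this list was called between models. The WT libraries themselves ranged from -0.49 to 0.35 in the centred median of this list.

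Metabolic and mitochondrial genes followed, with 7 of 22 higher and 1 lower in Rosa26-Lmo2+Sca1-Cre, 8 higher and 0 lower in Sca1-Lmo2, and 14 higher and 1 lower in Rosa26-Lmo2+Mb1-Cre. The all-gene shares higher were again 16.5, 12.1 and 19.7%. In Rosa26-Lmo2+Sca1-Cre the rises were 3 without replicate 2 and 11 without replicate 3. In Rosa26-Lmo2+Mb1-Cre they were 6 without replicate 2 and 8 on library totals. The medians were 0.58, 0.69 and 1.13. Atp5g2, an ATP synthase subunit, was at 110 to 178 CPM in WT and at 200 to 768 CPM in all 10 tumour libraries, and rose by 1.26, 1.36 and 2.17. Pmm1, a phosphomannomutase, rose by 1.77, 1.23 and 2.46, and Cyb5r3, a cytochrome b5 reductase, by 1.14, 0.99 and 1.19, the first call being lost on library totals. Cox6c rose in both Rosa26-Lmo2 models, by 2.34 in Rosa26-Lmo2+Mb1-Cre, and had a value of 0.72 in Sca1-Lmo2. Adsl, of purine synthesis, rose by 1.26 in Sca1-Lmo2 and 1.54 in Rosa26-Lmo2+Mb1-Cre, and Slc38a1, an amino acid transporter, by 1.47 in Sca1-Lmo2. The single fall in each Rosa26-Lmo2 model was Slc38a2, a related transporter (-1.14 and -1.37). It was no longer called in Rosa26-Lmo2+Sca1-Cre without WT replicate 2, 3 or 4 or replicate 1 or 3, nor in Rosa26-Lmo2+Mb1-Cre without WT replicate 4 or either replicate.

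Genome maintenance and cell division genes came next. Of 20 members, 3 rose and 1 fell in Rosa26-Lmo2+Sca1-Cre (median -0.08), 5 rose and 0 fell in Sca1-Lmo2 (0.77), and 11 rose and 1 fell in Rosa26-Lmo2+Mb1-Cre (0.88), where 16.5, 12.1 and 19.7% of all genes rose. In Rosa26-Lmo2+Mb1-Cre 1 member rose without replicate 2, 6 without WT replicate 1, 7 without replicate 1 or WT replicate 3 or 4, and 4 on library totals. In Sca1-Lmo2 the rises were 2 without WT replicate 4 and 3 without WT replicate 1 or its own replicate 1 or 3. In Rosa26-Lmo2+Sca1-Cre 1 rose without replicate 2 or WT replicate 1, 3 or 4, and without replicate 3 there were 2 rises and 2 falls. The falls there were 3 without replicate 2 and 0 without replicate 1. Xrcc6 was at 607, 584, 515 and 542 CPM in WT, 394, 1840 and 1690 in Rosa26-Lmo2+Sca1-Cre, 1990, 1900, 2320 and 1810 in Sca1-Lmo2, 2750 and 2030 in Rosa26-Lmo2+Mb1-Cre, while the Rosa26-Lmo2+Aid-Cre library was at 1840. Apart from Rosa26-Lmo2+Sca1-Cre replicate 1, which was below WT, the tumours were at 1690 CPM or more, and Xrcc6 rose by 1.32, 1.80 and 2.16, with the caution that Desi1 overlaps it. Rrm2b rose by 1.56 in Rosa26-Lmo2+Sca1-Cre and 2.14 in Rosa26-Lmo2+Mb1-Cre, the latter lost without replicate 2 (adjusted p = 0.0749). Recql4, a DNA helicase, rose by 1.18 in Sca1-Lmo2 and 1.66 in Rosa26-Lmo2+Mb1-Cre, and Dscc1, a factor of sister chromatid cohesion, by 1.89 and 1.75. The gene that fell in both Rosa26-Lmo2 models was Nipbl (-1.57 and -1.50), the second call being lost without either replicate or WT replicate 3 or 4.

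Chromatin and transcription genes fell more often than they rose in the Rosa26-Lmo2 models. Of 21 members, none rose and 6 fell in Rosa26-Lmo2+Sca1-Cre (median -0.43), 3 rose and none fell in Sca1-Lmo2 (-0.10), and none rose and 6 fell in Rosa26-Lmo2+Mb1-Cre (-0.42). Of all genes 10.4, 10.2 and 15.4% fell. The falls in Rosa26-Lmo2+Sca1-Cre were 0 without WT replicate 4 and 1 without WT replicate 3 or its own replicate 1 or 3, and 1 member rose without replicate 3. Those in Rosa26-Lmo2+Mb1-Cre were 0 without replicate 2, 2 without WT replicate 4 and 3 without replicate 1. The rises in Sca1-Lmo2 were 0 without WT replicate 1 or 3 or its own replicate 1 or 3, and 1 without WT replicate 4 or its replicate 4. On library totals the falls were 12, 0 and 10, and no member rose in any of these models. Sun2, which ties the nuclear envelope to the cytoskeleton, was at 225 to 267 CPM in WT, 153, 111 and 111 in Rosa26-Lmo2+Sca1-Cre, 288, 170, 228 and 259 in Sca1-Lmo2 and 126 and 63.6 in Rosa26-Lmo2+Mb1-Cre. It fell by 0.90 and 1.30 in the Rosa26-Lmo2 models, the second call being lost without replicate 2 (adjusted p = 0.101), and overlapped WT in Sca1-Lmo2. Brd1, a scaffold of histone acetyltransferases, had values of -0.93, 0.23 and -1.26, the last being lost as a call without replicate 2 (adjusted p = 0.177). The rises in Sca1-Lmo2 were Smarcd1, a BAF chromatin remodelling subunit (0.85), L3mbtl2 (0.58) and the stress response factor Atf4 (0.91). The Smarcd1 and L3mbtl2 calls were lost when single libraries were left out (adjusted p up to 0.0589 and 0.0738) and on library totals.

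Of 22 T-cell and lymphocyte signalling genes, 1 rose and 0 fell in Sca1-Lmo2. In Rosa26-Lmo2+Sca1-Cre 0 rose and 2 fell, Grap2 and Rictor, and in Rosa26-Lmo2+Mb1-Cre 1 rose and 5 fell, against 10.4 and 15.4% of all genes lower. The 2 falls were 0 without WT replicate 4 and 4 without replicate 2, and numbered 2 without replicate 3. The 5 falls were 0 without Rosa26-Lmo2+Mb1-Cre replicate 2 and 3 without WT replicate 2, 3 or 4. The medians were 0.15 in Sca1-Lmo2, 0.02 in Rosa26-Lmo2+Sca1-Cre and -0.34 in Rosa26-Lmo2+Mb1-Cre, and the first and second turned to -0.05 and -0.47 on library totals. The rise in Sca1-Lmo2 was Parvg, an integrin-linked adaptor of blood cells, at 140, 160, 158 and 158 CPM in WT and 542, 275, 461 and 408 CPM there (1.42, SE 0.255, adjusted p = 0.00374). The falls in Rosa26-Lmo2+Mb1-Cre were Grap2, Nr4a1, Rictor (-1.32), Tob2, an antiproliferative factor (-1.10), and Mkl1, an actin-sensing coactivator (-0.80). The Tob2 call was lost without replicate 2 (adjusted p = 0.124). Among 8 RNA processing members 1 rose and 1 fell in Rosa26-Lmo2+Sca1-Cre, where 16.5% of all genes rose and 10.4% fell. The counts were 3 and 0 in Sca1-Lmo2, against 12.1 and 10.2%. They were 4 and 1 in Rosa26-Lmo2+Mb1-Cre, against 19.7 and 15.4%. There 3 rose without WT replicate 3 or 4, where 14.3 and 13.6% of all genes rose. The median log2 fold change there was 0.55, and 0.60 without replicate 2. The rises in Sca1-Lmo2 were 5 without replicate 2, where 12.2% of all genes rose. The rise in Rosa26-Lmo2+Sca1-Cre was not called without any 1 library, in fits where 7.3 to 17.3% of all genes rose. Drosha, the nuclease that starts microRNA maturation, was at 43.5 to 47.4 CPM in WT and at 66.5 to 222 CPM in all 10 tumour libraries, and rose by 1.05, 1.28 and 2.00, although the first call was lost without any 1 library of its groups (adjusted p up to 0.114), and the first and second on library totals (adjusted p = 0.214 and 0.064). Ddx17, an RNA helicase, fell by 0.79 in Rosa26-Lmo2+Sca1-Cre, a call lost without WT replicate 4 or replicate 1 (adjusted p up to 0.0638). Of 24 stroma, myeloid and epithelium genes only 5 reached the level, Lgals1, Fbln1, Ly6c2, Angpt1 and Ncf4, and beside Fbln1 and Angpt1 none of them passed the test.

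**Figure D5:**
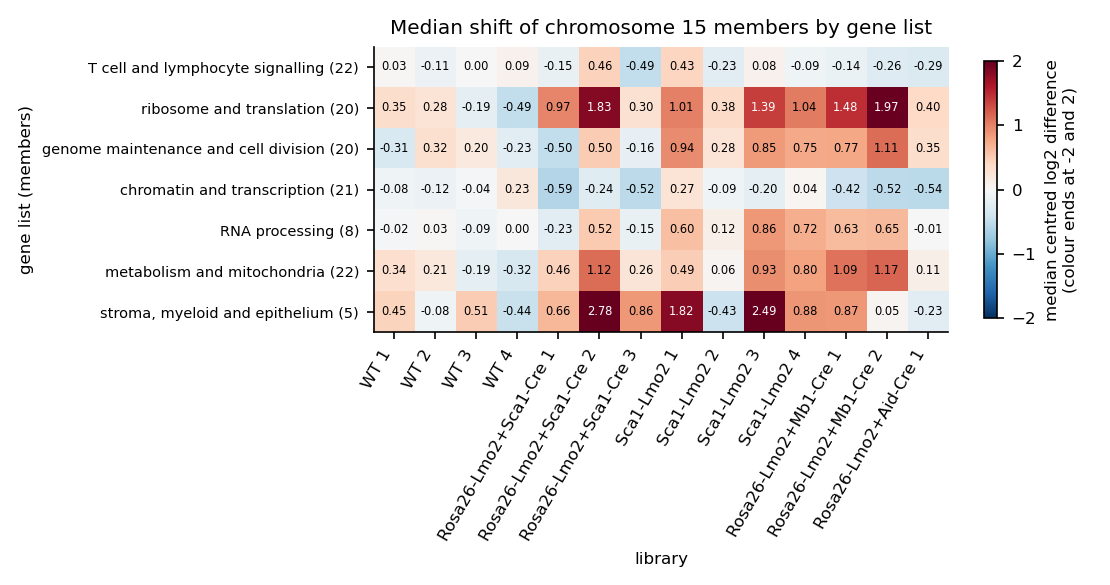
Median shift of each gene list (log2 difference from the WT mean, centred on the other autosomes) in each of the 14 libraries, as a colour scale with the value printed in each cell. The ribosome and translation list lies between 0.30 and 1.97 in the tumour libraries and between -0.49 and 0.35 in WT.

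Setting models against each other, 36 members (9.21%) differed when Sca1-Lmo2 was tested against Rosa26-Lmo2+Sca1-Cre, as did 9.89% of all genes, with 32 higher and 4 lower in Sca1-Lmo2. For Rosa26-Lmo2+Mb1-Cre against Sca1-Lmo2, 23 members (5.88%) differed, against 10.5% of all genes, with 6 higher and 17 lower in Rosa26-Lmo2+Mb1-Cre. For Rosa26-Lmo2+Mb1-Cre against Rosa26-Lmo2+Sca1-Cre, 0 members passed edgeR's quasi-likelihood test, against 0.211% of all genes, with 69 members at an unadjusted p under 0.05. There limma-voom called 0 members and DESeq2 19, against 0.00585 and 7.8% of all genes. Without Rosa26-Lmo2+Sca1-Cre replicate 2, 9 members passed edgeR's test, against 1.22% of all genes. By direction, 8.18% of the members were higher and 1.02% lower in Sca1-Lmo2 than in Rosa26-Lmo2+Sca1-Cre, against 3.59% and 6.3% of all genes and 4.35 and 3.37% of other autosomes' genes at the same level. In Rosa26-Lmo2+Mb1-Cre 1.53% were higher and 4.35% lower than in Sca1-Lmo2, against 6.04% and 4.49% of all genes. In the first comparison 1.97, 7.28 and 7.08% of all genes differed without Sca1-Lmo2 replicate 1, Rosa26-Lmo2+Sca1-Cre replicate 1 and Sca1-Lmo2 replicate 3. The first count was 3, 16 and 23 members in these fits. The second was 1 without Sca1-Lmo2 replicate 1 and 0 without Rosa26-Lmo2+Mb1-Cre replicate 2. Over all genes 0.217% differed in the second comparison without Sca1-Lmo2 replicate 1. With only the 2 groups in the fit, 0 members passed edgeR's test in each of these comparisons, with 92, 94 and 34 members at an unadjusted p under 0.05 in the order given. At most 0.0293% of all genes passed in those fits.

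Acvr1b, a type I activin receptor, was called in both comparisons with Sca1-Lmo2. It was at 48.8, 30.8, 30.7 and 45.6 CPM in Sca1-Lmo2, at 14.0, 14.0 and 13.2 in Rosa26-Lmo2+Sca1-Cre, at 8.58 and 10.5 in Rosa26-Lmo2+Mb1-Cre and at 20.7, 20.6, 27.4 and 32.9 in WT. Sca1-Lmo2 was higher than Rosa26-Lmo2+Sca1-Cre by 1.39 (SE 0.251, adjusted p = 0.0118), and Rosa26-Lmo2+Mb1-Cre differed from Sca1-Lmo2 by -1.92 (SE 0.301, adjusted p = 0.0145), a call lost without its replicate 2 (adjusted p = 0.108). Pop1, the protein core of RNase P and RNase MRP, was at 38.1, 22.5, 33.0 and 29.1 CPM in Sca1-Lmo2 and at 6.46 to 14.4 in Rosa26-Lmo2+Sca1-Cre, higher by 1.45 (SE 0.292, adjusted p = 0.0156). Mtbp, named for binding Mdm2, was higher by 1.42 (adjusted p = 0.0162), with Mrpl13 overlapping it. Both of these calls were lost without Sca1-Lmo2 replicate 1 (adjusted p = 0.0514 and 0.0532). Csnk1e, a casein kinase, was at 81.0, 68.8, 62.9 and 81.1 CPM in Sca1-Lmo2, 40.7, 42.0 and 36.8 in Rosa26-Lmo2+Sca1-Cre and 37.2 and 22.1 in Rosa26-Lmo2+Mb1-Cre, so that its groups did not overlap either.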

How the data were processed

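RNA of 14 libraries in 5 groups was analysed, 42985130 to 47667663 counts each. From non-stranded TruSeq libraries the authors sequenced read pairs on an Illumina HiSeq instrument, converted them with bcl2fastq (version not given in the sources used here), aligned them to mm10/GRCm38 with TopHat2 2.1.0 and deposited raw counts over whole gene spans made with bamsignals. Such counts include introns and any gene that overlaps: 175 members overlap a listed gene and 96 overlap one with at least 0.1 times their counts. Of 46948 lines, 2 repeats of listed genes were dropped. Gene types came from an annotation in which all 391 members matched by identifier, and 179 had the same span.

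Counts were tested with edgeR 4.0.16 in R 4.3.3 (quasi-likelihood F test, TMM, all groups in 1 fit without covariates, at least 1 CPM in 3 libraries, adjusted p of at most 0.05 over 17087 genes). The standard error is the fold change divided by the root of F. Printed CPM values are TMM-scaled, and the shift used log2 CPM with a prior count of 2. Intervals were not given for single libraries, since counting error at this depth is small beside the spread between libraries. The steps were tested on simulated data. No libraries of a group agreed within sampling noise (chi-square per gene 57.67 to 473.6).

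The members and lists were chosen with earlier results of these data known. Genes were named by rule: in each comparison with WT the 6 largest called rises and falls whose libraries do not overlap, without predicted or clone symbols; in each list the 2 smallest adjusted p; the 4 members nearest Myc on each side; between models up to 6 called members with the smallest adjusted p; and the members at the level threshold, with some left out for length. List members outside it, such as Rpl8, Brix1, Pmm1, Cox6c, Slc38a2, Recql4, Dscc1, Atf4 and Mkl1, were chosen after their values were seen. Alternatives were other scaling, no filter, limma-voom (limma 3.58.1), DESeq2 1.42.0, other members and centring, the replicate number as a block, Sca1-Lmo2 replicates 1 and 3 merged, and each library left out. Genome-wide p-values adjusted over a list alone were not computed.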

Additional observations from a re-analysis of the deposited data

Results flagged for a closer look

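The Sca1-Lmo2 group held 1 library whose chromosome 15 shift lay apart from the other 3, replicate 2 at 0.04. Among single genes, 1 library also lay apart from the rest of its group for Ncald (WT replicate 1, 4.11 CPM), Adcy6 (WT replicate 4, 290 CPM), Gsdmd (WT replicate 1, 81.1 CPM), Parvg (WT replicate 1, 140 CPM) and L3mbtl2 (Sca1-Lmo2 replicate 2, 37.0 CPM). These are 6 of 124 groups of values checked, and chance alone marks about 1 in 20.

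For 21 pairs of a named gene and a comparison the difference between models itself passed edgeR's quasi-likelihood test. Sca1-Lmo2 against Rosa26-Lmo2+Sca1-Cre gave log2 fold changes of 2.03 for Gm27406, 1.45 for Pop1, 1.42 for Mtbp, 1.39 for Acvr1b, 1.17 for Gm17638, 1.16 for Brd1, 1.11 for Parvg, 0.88 for Smarcd1, 0.77 for Csnk1e, 0.76 for Cpsf1 and -1.77 for Rpl39-ps. Gm27406 lies within Pcbp2, Gm17638 overlaps Eif3d and Cpsf1 overlaps Adck5, so their reads cannot be told apart. Rosa26-Lmo2+Mb1-Cre against Sca1-Lmo2 gave -3.33 for Fam109b, -1.92 for Acvr1b, -1.69 for Gm27406, -1.58 for Zfp623, -1.49 for Brd1, -1.33 for Tmem184b, -1.21 for Sun2, -1.20 for Csnk1e, -1.09 for Smarcd1 and 1.73 for Gm29666.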

How the results depend on the processing

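Of 101 pairs of a named gene and a comparison (61 genes), all 86 called pairs kept their direction in every setting, while the call was lost in 181 of the alternative values and gained in 1. The sign turned in 6 pairs, none of them called. On library totals Rosa26-Lmo2+Sca1-Cre gave -0.37 for E430025E21Rik (-0.03 without a filter), -0.35 for Fam49b and -0.34 for Asap1, and Rosa26-Lmo2+Mb1-Cre gave -0.38 for Fam49b. With a library left out, values in Rosa26-Lmo2+Sca1-Cre ran from -0.06 to 0.13 for E430025E21Rik, from -0.81 to 1.40 for Trib1, from -0.22 to 0.38 for Fam49b, from -0.20 to 0.31 for Asap1 and from -0.19 to 0.04 for Efr3a. The cause was not tested. With TMM and no centring the shift was 0.03 in Rosa26-Lmo2+Sca1-Cre, 0.25 in Rosa26-Lmo2+Mb1-Cre and 0.51 in Sca1-Lmo2. It differed from the main value by less than 1 SD under the other settings but those below, including a level taken over the WT libraries alone, chosen after seeing the data (0.45 in Sca1-Lmo2, 0.19 in Rosa26-Lmo2+Sca1-Cre and 0.40 in Rosa26-Lmo2+Mb1-Cre). On library totals without centring it turned to -0.32 in Rosa26-Lmo2+Sca1-Cre and to -0.14 in Rosa26-Lmo2+Mb1-Cre, where members without an overlapping gene gave 0.52. Leaving out single libraries gave 0.37 to 0.56, 0.01 to 0.26 and 0.28 to 0.46 in the same order.

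Members higher than WT in Rosa26-Lmo2+Sca1-Cre numbered 32 on library totals, 41 with limma-voom and 28 to 86 with a library left out, and those lower 71 on library totals and 5 to 30. In these fits 9.23, 11.7 and 7.3 to 17.3% of all genes rose, and 16.6 and 4.23 to 12.1% fell. In Sca1-Lmo2 the rises were 63 on library totals, 61 with replicates 1 and 3 merged and 57 to 122 with a library left out, where 7.91, 8.11 and 6.91 to 12.2% of all genes rose. The falls there were 4 without a filter, 11 with only the 2 groups and 2 to 10, where 3.96, 12.8 and 5.95 to 11.4% of all genes fell. In Rosa26-Lmo2+Mb1-Cre the rises were 63 on library totals and 34 to 100 with a library left out, and the falls 5 to 31. Sca1-Lmo2 against Rosa26-Lmo2+Sca1-Cre gave 63 members on library totals, 56 without a filter, 76 with DESeq2, 0 with only the 2 groups, 11 with the merged replicates and 3 to 41 with a library left out. In the same order 8.53, 10.5, 21.1, 0, 4.0 and 1.97 to 12.6% of all genes differed. Rosa26-Lmo2+Mb1-Cre against Rosa26-Lmo2+Sca1-Cre gave 2 without a filter, 19 with DESeq2 and 0 to 9. Rosa26-Lmo2+Mb1-Cre against Sca1-Lmo2 gave 67 with DESeq2, 0 with only the 2 groups, 10 with the merged replicates and 0 to 28. In these last 2 comparisons DESeq2 called 7.8 and 23.3% of all genes. Fits without a library or with fewer groups have fewer samples, and for the others the cause was not tested.

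Replicate numbers did not pair the libraries: same-numbered libraries of different groups had correlations of -0.399 to 0.17 (16 pairs, 4 above 0.1), against -0.386 to 0.39 over 46 pairs with different numbers. With the number as a replicate block, the calls against WT were 16 higher and 3 lower in Rosa26-Lmo2+Sca1-Cre, 61 and 4 in Sca1-Lmo2, and 62 and 14 in Rosa26-Lmo2+Mb1-Cre, and 0 between models. The shares of all genes were 4.9 and 3.1%, 7.62 and 7.17%, and 10.5 and 8.16%, and at most 0.0468% between models.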
